A study of Mus musculus with 4 samples.

Results

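The cells described here are the tumorigenic and the cytotoxic (CTL) clusters of T cells without TGFβR, sorted from the small intestine of mice. They were chosen by the names that the authors deposited for each cell, within the TGFβR-KO cells, whose name prefix was tied to that sample by elimination. The tumorigenic cluster holds 361 cells and the CTL cluster 321 cells, together 682 of the 2975 TGFβR-KO cells and of 5080 cells in all. All conditions share the *Il17a-cre* allele and the *Rosa26-stop* fl/fl*-yfp* reporter on a C57BL/6 background, so that YFP marks CD4+ T cells that transcribed *Il17a* at some time, whether or not they still do. TGFβR-KO mice also carry *Tgfbr2* fl/fl, which the Cre deletes in the same cells, and TGFβR-CA mice carry a constitutively active form of *Tgfbr1* behind a floxed stop. TGFβR-WT mice carry neither. The 4 samples, each a pool of adult mice, are 2 of TGFβR-WT and 1 of each other genotype, and both clusters compared here come from the 1 TGFβR-KO pool. By the study's methods, TGFβR-KO cells shared a sequencing batch with TGFβR-WT cells, and TGFβR-CA cells were in another batch with TGFβR-WT cells.

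TGFβ is a cytokine that binds a receptor of 2 chains, TGFBR1 and TGFBR2, and restrains effector programs of T cells in the gut. T helper 17 (TH17) cells are CD4+ T cells that secrete IL-17A, IL-17F and IL-22. TH1 cells secrete IFNγ under T-BET, encoded by *Tbx21*. Cytotoxic T cells kill targets through granules that hold granzymes, which perforin delivers into the target cell, and they often carry receptors shared with natural killer (NK) cells. The comparison asks how the tumorigenic and the cytotoxic cells that arise without TGFβR differ from each other, since both hold *Ifng* and *Tbx21*.

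Each captured RNA molecule carried a unique molecular identifier (UMI), and the deposited values hold UMIs corrected to a common depth per cell. Below, the level of a gene in a cluster is its sum of corrected UMIs over all cells there, scaled to a total of 10000, and a share is the percent of cells with at least 1 corrected UMI. The tumorigenic cluster held 1412301 corrected UMIs, with a median of 3940 per cell (3377 to 4538) and 1430 detected genes, and the CTL cluster 1209798, with a median of 3643 (3313 to 4542) and 1446 genes. Mitochondrial UMIs made up a median of 0.955% and 0.864%. No cell of either cluster shared a barcode with another set of cells. Cells are not replicates of a mouse and the clusters were formed from the genes compared, so every difference is a description by size, without a test. Intervals of shares are exact Clopper-Pearson 95% intervals and cover counting error only, not the variation between mice. Levels carry no interval, since corrected UMIs are not raw counts.

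*Tgfbr2*, the deleted gene, was at 1.20 corrected UMIs per 10000 in tumorigenic cells and 1.604 in CTL cells, against 1.51 in the other 6 clusters of TGFβR-KO cells. It was above 0 in 36.0% (31.1% to 41.2%) and 43.0% (37.5% to 48.6%) of the cells. A gene total does not tell the deleted exons from the rest of the transcript, so it does not check the deletion.

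A feature that parts the 2 clusters beyond their named programs was seen after the values were examined. *Rps3a1* encodes a protein of the small ribosomal subunit, and its level was 22.0 in tumorigenic and 4.66 in CTL cells. It fell into 2 ranges in TGFβR-KO cells, with 1443 of 2975 cells (48.5%) at 3 or fewer corrected UMIs, 118 at 4 and 1414 (47.5%) at 5 or more. Of the tumorigenic cells, 315 (87.3%) were in the higher range and 25 (6.93%) in the lower, whereas 32 CTL cells (9.97%) were in the higher and 281 (87.5%) in the lower. The higher range held 205 of 230 pre-tumorigenic cells, but 132 of 318 activated, 366 of 831 migratory, 186 of 519 tissue-resident TFH and 134 of 318 germinal center TFH cells. *BC018473*, a transcript on another chromosome, was above 0 in 5.20% of the lower and 60.5% of the higher TGFβR-KO cells. Of the TGFβR-CA cells, 6 of 1098 were in the lower range, and of the TGFβR-WT cells 239 of the 709 with one barcode suffix and 0 of the 298 with the other. TGFβR-CA cells were not in the batch of TGFβR-KO cells, so genotype and batch cannot be told apart in this contrast. The barcode suffixes of TGFβR-WT cells are not tied to a batch. *BC018473* did not follow the ranges in the same way in TGFβR-WT and TGFβR-CA cells. Among the 709 TGFβR-WT cells it was above 0 in 43.1% of the lower and 22.65% of the higher cells. In the higher range it was above 0 in 0.673% of the 298 TGFβR-WT cells' set and 0.553% of TGFβR-CA cells. The sample is a pool of mice whose cells are not told apart in the table, and *Rps3a1* has near-identical copies in the genome that can share its reads. Differences between the clusters and between the mice, or other sources of cells, that make them up therefore cannot be told apart here, and main values below are also given within the higher range.

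**Figure D1:**
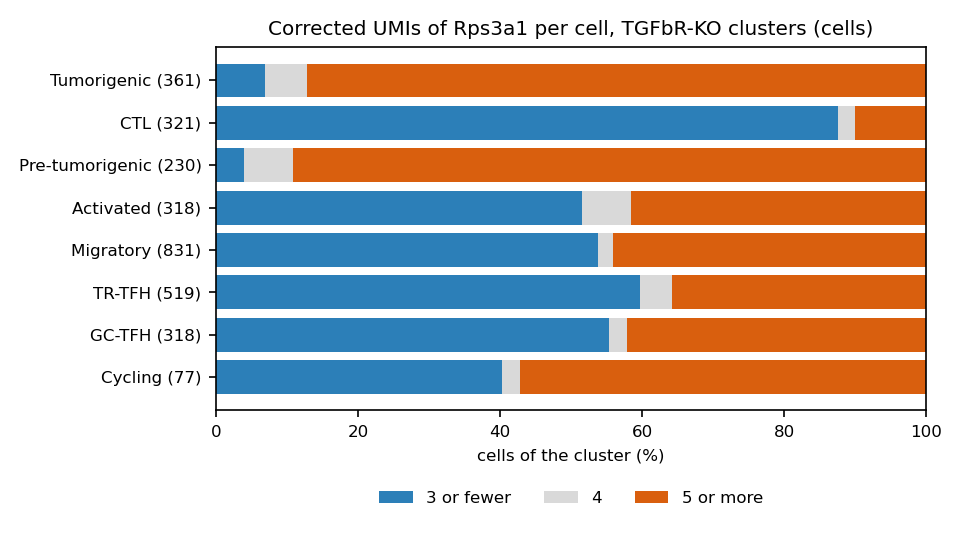
Share of cells (percent, stacked bars) with 3 or fewer, 4, or 5 or more corrected UMIs of Rps3a1 in each cluster of TGFβR-KO cells. In the tumorigenic cluster 87.3% of cells have 5 or more, and in the CTL cluster 87.5% have 3 or fewer.

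A second measure moved with the clusters. The 22 tested genes of a list of 27 genes that tissue dissociation induces (*Fos*, *Jun* and *Hspa1a* among them) include 21 that were higher in tumorigenic cells. The listed genes summed to 281.7 corrected UMIs per 10000 in tumorigenic and 68.1 in CTL cells. Per cell, the sum ranged from 53.4 to 1202 (median 252.5) in tumorigenic cells and from 15.8 to 162.1 (median 64.7) in CTL cells, and 297 tumorigenic cells were above the highest CTL cell. Pre-tumorigenic cells had a median of 477.3, and the medians of the remaining clusters lay between 61.4 and 80.6. The part of dissociation in the differences was not tested, but main values are also given for the 120 tumorigenic cells with the lowest sums (median 157.6) against the 107 CTL cells with the highest (median 95.4), called the subsets by dissociation sum. For genes in the sum itself, this choice of cells narrows or turns the difference by construction.

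Among 1904 genes with at least 200 corrected UMIs in both clusters together, 208 (10.9%) were at least 1.5 times higher in tumorigenic cells and 239 (12.6%) at least 1.5 times higher in CTL cells, after 0.1 per 10000 was added to each level. The remaining 1457 genes lay between. The median log2 ratio was -0.08, with the 10th percentile at -0.65 and the 90th at 0.66. Large differences lay mostly on the tumorigenic side. At a threshold of 2 times, 143 genes (7.51%) were higher in tumorigenic and 59 (3.1%) in CTL cells, so that the share of calls on the tumorigenic side was 46.5% at 1.5 times and 70.8% at 2 times. The 208 genes took 12.7% of the corrected UMIs of tumorigenic cells and 3.96% of those of CTL cells, and the 239 genes took 8.68% of CTL and 4.20% of tumorigenic UMIs. Just inside the threshold were *Fabp5* (1.504 times), *Peli1* (1.506) and *Rbm33* (1.509) on the tumorigenic side, and *Flna* (1.49), *Zfand5* (1.488) and *Smad7* (1.485) were just outside it.

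The other clusters of the same sample place these differences. Of the 208 genes higher in tumorigenic cells, 163 were also at least 1.5 times their level in the other 6 clusters together, and 73 were at least 1.5 times lower in CTL cells than in those clusters. Of these 208 genes, 150 were also higher in pre-tumorigenic than in CTL cells. Of the 239 genes higher in CTL cells, 57 were at least 1.5 times the level of the other clusters in CTL cells, and 94 were at least 1.5 times lower in tumorigenic cells than in the other clusters. Each count reuses a level that also set the ratio between the 2 clusters. Over all 1904 tested genes, 23 were at least 1.5 times the other clusters in both clusters, 177 in tumorigenic cells only and 67 in CTL cells only. For the low levels and the pre-tumorigenic comparison, no share over all tested genes is given. The counts therefore only describe where the levels lay.

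**Figure D2:**
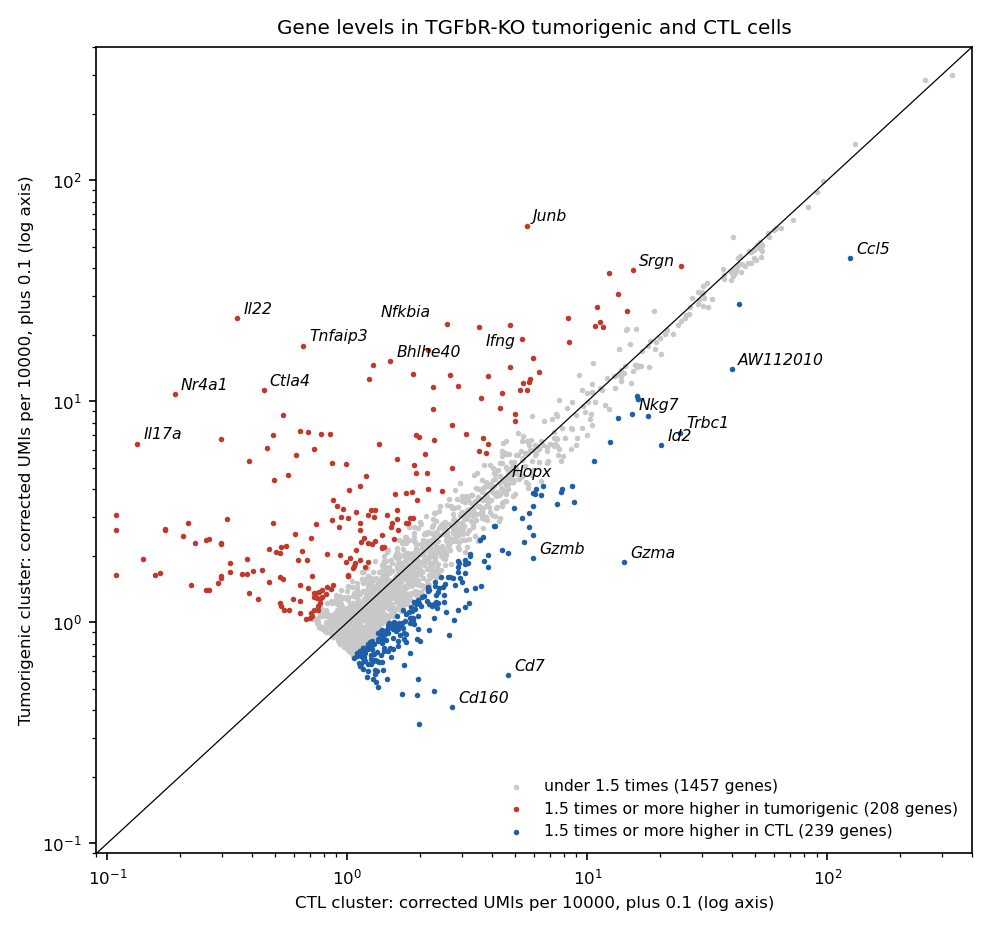
Level in tumorigenic against CTL cells of TGFβR-KO (corrected UMIs per 10000 plus 0.1, both axes logarithmic), 1 point for each of 1904 genes. Red points are 208 genes at least 1.5 times higher in tumorigenic cells and blue points 239 genes at least 1.5 times higher in CTL cells, with the largest distances from the diagonal on the tumorigenic side (*Il22*, *Nr4a1*).

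The gene with the largest ratio was *Il22*, on chromosome 10 of mm10 from 118204942 to 118210047, whose product acts on epithelial cells. Its level was 23.6 in tumorigenic and 0.248 in CTL cells, a ratio of 68.0. It was above 0 in 121 tumorigenic cells (33.5%, 28.7% to 38.7%) and 21 CTL cells (6.54%, 4.10% to 9.83%). The CTL share was about that of the tissue-resident TFH cluster (5.97%, 519 cells with a median of 3575 corrected UMIs). Whether such a share is background from free RNA was not tested. Pre-tumorigenic cells had a level of 38.6. Within the higher *Rps3a1* range the levels were 26.7 and 0.82 (29.0 times), and between the subsets by dissociation sum 15.1 and 0.440 (28.1 times). The tumorigenic signal was uneven, with 81.6% of the *Il22* UMIs in 10% of the cells.

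The other cytokines of TH17 cells were higher in tumorigenic cells too. *Il17a*, on chromosome 1 from 20730905 to 20734496, was at 6.32 against 0.033, with 8.61 in pre-tumorigenic cells. It was above 0 in 51 cells (14.1%, 10.7% to 18.2%) against 4 cells (1.25%, 0.341% to 3.16%), beside 1.93% of tissue-resident TFH cells. Whether such low shares are background was not tested. *Il17f* had 355 corrected UMIs in tumorigenic cells and 1 in CTL cells. Of the 7 TH17 markers listed, these and *Il22* passed the filter. *Il23r*, the receptor for IL-23, stayed below it and was above 0 in 17.7% (13.9% to 22.1%) and 5.30% (3.12% to 8.34%). Tumorigenic cells thus held more of the TH17 transcripts than CTL cells while also holding more *Ifng*.

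*Ifng*, on chromosome 10 from 118441046 to 118445892, was at 21.6 in tumorigenic cells, 3.44 in CTL cells and 1.61 in the other 6 clusters, a ratio of 6.12 between the first pair. The shares of cells differed less, with 217 tumorigenic cells (60.1%, 54.9% to 65.2%) and 152 CTL cells (47.4%, 41.8% to 53.0%), against 1.35% of tissue-resident TFH cells. With at least 2 corrected UMIs required, the shares were 50.1% and 24.9%. The ratio of levels was thus larger than that of the shares, since positive cells held a median of 7 corrected UMIs in tumorigenic and 2 in CTL cells. The top 10% of cells held 59.7% of the *Ifng* UMIs in tumorigenic and 57.0% in CTL cells. The ratio was 5.86 within the higher *Rps3a1* range and 5.74 between the subsets by dissociation sum. *Tbx21* had similar levels, 0.701 and 0.736 against 0.159 in the other clusters, below the filter on UMIs. It was above 0 in 19.7% (15.7% to 24.2%) of tumorigenic and 21.5% (17.1% to 26.4%) of CTL cells and in 1.35% of tissue-resident TFH cells. Between the subsets by dissociation sum *Tbx21* was at 0.390 and 0.907.

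Of 12 tested cytokines, 10 were higher in tumorigenic cells and 1 in CTL cells, with a median log2 ratio of 2.24 against -0.08 for all tested genes. *Csf2*, which encodes GM-CSF, was at 1.57 against 0.066, above 0 in 21.1% (17.0% to 25.6%) and 2.49% (1.08% to 4.85%) of cells. *Areg*, the EGF receptor ligand amphiregulin, had 417 corrected UMIs in tumorigenic cells and 1 in CTL cells. *Cd40lg* was at 7.68 against 2.64, *Tnfsf8* at 6.90 against 1.83, *Tnf* at 1.82 against 0.579 and *Tgfb1* at 1.52 against 0.910. The *Tgfb1* difference fell under 1.5 times within the higher *Rps3a1* range and with 0.5 added. Between the subsets by dissociation sum the direction of *Tnf* turned, with a log2 ratio of -0.063. *Ltb*, which encodes lymphotoxin β, was the cytokine higher in CTL cells, at 10.5 against 5.25. Among chemokines, *Ccl4* was at 2.85 against 0.909 although it was above 0 in similar shares of cells, 10.2% and 11.8%. *Cxcl3*, a chemokine for neutrophils, had 217 corrected UMIs in 26 tumorigenic cells and 1 in CTL cells.

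Genes of the NF-κB pathway, which turns receptor and cytokine signals into transcription and induces its own inhibitors, were high in tumorigenic cells. Of 12 tested, 10 were higher there and 1 was higher in CTL cells, with a median log2 ratio of 1.54. *Tnfaip3*, which encodes the inhibitor A20, was at 17.7 against 0.554 and was above 0 in 96.7% (94.3% to 98.3%) of tumorigenic and 16.2% (12.3% to 20.7%) of CTL cells. Pre-tumorigenic cells had it at 12.7. The levels of *Tnfaip3* within the higher *Rps3a1* range were 18.1 and 0.907 (18.1 times). *Nfkbia*, the inhibitor IκBα, was at 22.3 against 2.50 (8.63 times), with ratios of 13.8 within the higher *Rps3a1* range and 4.73 between the subsets by dissociation sum, a sum that includes it. *Nfkbiz* was at 7.24 against 0.54 and the subunit *Rel* at 5.98 against 0.63. *Cyld*, a deubiquitinase that restrains NF-κB, was higher in CTL cells, at 1.76 against 1.03, a difference that fell under 1.5 times with 0.5 added. The list counts were 10 and 1 within the higher *Rps3a1* range and were 9 and 1 between the subsets by dissociation sum. The serine kinase *Pim1* was at 16.9 against 2.07 and *Cish*, an inhibitor of cytokine receptors, at 1.99 against 0.55.

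Promoter letters are shown for these genes because several of them carry an NF-κB motif close to their start. In RefSeq promoters of 300 bases (250 before and 50 after the start, GRCm38.p6), the letters of the NF-κB consensus, read on either strand, were in 8 of the 18 NF-κB list genes with a promoter (44.4%), against 1.38% of all 27025 symbols and 1.999% of the 1501 tested genes with a promoter. Among genes higher in tumorigenic cells they were in 5.16% of 155 with a promoter, and among genes higher in CTL cells in 2.65% of 189. Among the 15 genes with the largest ratios in each direction, 1 of 13 with a promoter on the tumorigenic side and 1 of 12 on the CTL side held them. The *Tnfaip3* promoters did not hold them, whereas promoters of *Cyld* and *Il16*, both higher in CTL cells, did. A match is a description of letters and not a site in use. The 250 bases before the start of *Nfkbia* (chr12:55492648-55492897, minus strand) and *Cxcl3* (chr5:90785851-90786100, plus strand) are given with the NF-κB letters in capitals, 29 and 73 bases before the start. Those of *Areg* (chr5:91139349-91139598, plus strand) carry the CRE letters TGACGTCA in capitals, 61 bases before the start, and those of *Il17a* (chr1:20730655-20730904, plus strand) the AP-1 letters TGANTCA, 244 bases before it.
Nfkbia: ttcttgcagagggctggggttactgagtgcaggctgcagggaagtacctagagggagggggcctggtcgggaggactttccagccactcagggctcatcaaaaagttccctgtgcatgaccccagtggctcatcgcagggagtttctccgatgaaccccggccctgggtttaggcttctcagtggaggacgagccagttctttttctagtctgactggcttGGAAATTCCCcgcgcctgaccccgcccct
Cxcl3: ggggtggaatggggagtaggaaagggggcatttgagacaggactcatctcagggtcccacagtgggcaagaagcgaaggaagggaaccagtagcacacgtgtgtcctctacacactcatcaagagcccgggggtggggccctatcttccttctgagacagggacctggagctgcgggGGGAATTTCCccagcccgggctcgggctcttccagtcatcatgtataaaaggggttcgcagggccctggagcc
Areg: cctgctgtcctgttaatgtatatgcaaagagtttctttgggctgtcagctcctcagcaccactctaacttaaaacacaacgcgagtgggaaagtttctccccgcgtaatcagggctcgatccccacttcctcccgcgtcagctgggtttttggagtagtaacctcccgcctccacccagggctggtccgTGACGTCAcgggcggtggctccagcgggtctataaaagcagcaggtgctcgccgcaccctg
Il17a: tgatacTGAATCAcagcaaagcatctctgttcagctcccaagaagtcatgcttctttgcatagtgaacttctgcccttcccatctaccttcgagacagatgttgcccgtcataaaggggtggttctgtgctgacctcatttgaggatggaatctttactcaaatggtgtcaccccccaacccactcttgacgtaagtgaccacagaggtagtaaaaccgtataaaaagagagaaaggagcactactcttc
The CRE letters were in 4.52% of promoters of genes higher in tumorigenic cells, 2.65% of those higher in CTL cells and 4.06% of all tested genes. The AP-1 letters were in 9.03%, 7.94% and 6.13%, in the same order. The KLF letters CCNCNCCC were in 81.3%, 67.2% and 74.6%. Over all 27025 symbols the shares were 2.03% for CRE, 8.97% for AP-1 and 51.9% for KLF, so the AP-1 shares were close to that of all symbols.

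Immediate-early genes, which cells transcribe within minutes of a stimulus, were nearly all higher in tumorigenic cells. Of 23 tested, 22 were higher in tumorigenic cells and 0 in CTL cells, with a median log2 ratio of 2.40, and the listed genes summed to 280.9 against 71.9. In pre-tumorigenic cells the listed genes summed to 380.7. *Nr4a1*, a nuclear receptor induced by T cell receptor signals, was at 10.7 against 0.091 (56.6 times) and was above 0 in 83.4% (79.1% to 87.1%) and 3.43% (1.72% to 6.05%) of cells. Pre-tumorigenic cells had it at 7.76. The AP-1 subunit *Junb* was at 62.2 against 5.48, and *Jund* at 38.1 against 12.2. *Fosl2* was at 2.51 against 0.07 and *Fosb* at 2.54 against 0.07, the latter on 9 corrected UMIs in CTL cells. The phosphatase *Dusp5* was at 8.55 against 0.44 and *Dusp1* at 7.12 against 0.59. *Nr4a1* within the higher *Rps3a1* range was at 11.1 against 0.248, on 3 corrected UMIs in CTL cells, and *Dusp5* at 8.56 against 0.742 (10.3 times). *Egr1* was the exception, at 1.11 and 0.80. Of the 23, 11 are in the dissociation sum itself, *Nr4a1*, *Junb*, *Jund*, *Fos*, *Jun* and *Btg2* among them, so their values between the subsets by that sum are not independent of how the cells were chosen. There *Nr4a1* was at 6.89 against 0.207 and *Junb* at 34.8 against 10.1, but *Fos* (log2 ratio -0.024), *Jun* (-1.01) and *Btg2* (-0.14) had turned. Of the 12 outside the sum, 11 were higher in tumorigenic cells between the subsets and 0 in CTL cells. Within the higher *Rps3a1* range 22 of 23 were higher in tumorigenic cells.

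All 12 tested heat shock genes were higher in tumorigenic cells, with a median log2 ratio of 1.25, and *Hspa1a* was at 14.4 against 1.18. The listed heat shock genes summed to 137.9 in tumorigenic, 50.3 in CTL and 341.4 in pre-tumorigenic cells. *Hspa1a* and *Hspa1b* are near-identical neighbors between which UMIs can be split. Of these 12 genes, 8 are in the dissociation sum by which the subsets of cells were chosen, so a smaller or turned ratio there is built into the choice. *Hspa1a*, *Hspa1b* and *Hspa8*, all in the sum, had log2 ratios of -1.62, -1.93 and -0.030 between the subsets. Of the other 4, 2 were higher in tumorigenic cells between the subsets and 0 in CTL cells.

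Transcription factors of lineage and effector state differed in part. Of 16 tested, 6 were higher in tumorigenic cells and 2 in CTL cells. *Bhlhe40*, a repressor known for cytokine production in T helper cells, was at 15.04 against 1.41 and was above 0 in 93.9% (90.9% to 96.1%) and 28.7% (23.8% to 33.9%) of cells. *Klf6* was at 13.2 against 1.78, *Rora*, a nuclear receptor of TH17 cells, at 15.6 against 5.84, *Irf4* at 1.48 against 0.20, *Batf* at 2.85 against 1.77 and *Klf2* at 13.5 against 6.18. The *Batf* difference fell under 1.5 times within the higher *Rps3a1* range, between the subsets by dissociation sum and with 0.5 in place of 0.1 added per 10000. Between the subsets by dissociation sum *Klf2* turned, at a log2 ratio of -0.25. *Nfil3*, a repressor named by its ratio, was at 1.83 against 0.04, on 5 corrected UMIs in CTL cells. *Id2*, an inhibitor of E proteins required by innate and cytotoxic lymphocytes, was higher in CTL cells at 20.2 against 6.23. Activated cells had more *Id2*, at 22.3. *Runx3*, a factor of cytotoxic lineages, was at 3.14 and 3.12, *Hopx* at 4.26 and 4.43 and *Maf* at 11.1 and 9.37. Other genes with large ratios on the tumorigenic side were *Odc1*, the first enzyme of polyamine synthesis (6.65 against 0.20), the sorting factor *Vps37b* (6.95 against 0.39) and the histone demethylase *Kdm6b* (5.24 against 0.29). The ratio of *Odc1* within the higher *Rps3a1* range was 8.09 (6.71 against 0.742) and that of *Vps37b* 8.71 (7.24 against 0.742).

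Genes with large ratios toward CTL cells included receptors and granule proteins. *Cd7*, on chromosome 11 from 121036747 to 121039418, encodes a receptor of T and NK cells and was at 4.58 against 0.474 (8.15 times), in 62.6% (57.1% to 67.9%) of CTL and 12.2% (8.997% to 16.0%) of tumorigenic cells, beside 4.82% of tissue-resident TFH cells. *Gzma*, on chromosome 13 from 113093825 to 113100981, was at 14.1 against 1.76 (7.60 times), in 25.6% (20.9% to 30.7%) and 5.82% (3.64% to 8.76%) of cells. *Cd160*, an inhibitory and activating receptor of cytotoxic cells, was at 2.63 against 0.312 (6.63 times), in 40.5% of CTL and 8.59% of tumorigenic cells, the latter below the 10.6% of tissue-resident TFH cells. *Gzmb* was at 5.82 against 1.86 (3.03 times) and *Ccl5*, on chromosome 11 from 83525778 to 83530518, at 123.6 against 44.4 (2.78 times). *Ccl5* was above 0 in 96.6% (94.0% to 98.3%) of CTL and 37.4% (32.4% to 42.6%) of tumorigenic cells, against 12.1% of tissue-resident TFH cells. Others with large ratios were the G protein-coupled receptor *Gpr18* (1.89 against 0.248), the ADP-ribosyltransferase *Art2b* (2.19 against 0.39), *Il16* (1.87 against 0.45), the Notch-modifying enzyme *Lfng* (1.59 against 0.38), *AW112010* (39.8 against 13.8) and *Serpina3g* (2.67 against 0.92). *Jchain* also passed, at 1.85 against 0.368, but 218 of its 224 corrected UMIs in the CTL cluster were in 1 cell.

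Cytotoxic genes were split between the clusters. Of 10 tested granule genes, 5 were higher in CTL cells and 4 in tumorigenic cells. Those of CTL cells were *Gzma*, *Gzmb*, *Nkg7* (15.2 against 8.61), *Ctsw* (2.05 against 1.15) and *Cst7* (1.65 against 0.72). Within the higher *Rps3a1* range *Cst7* turned, at a log2 ratio of 0.18. Those of tumorigenic cells were *Srgn*, the proteoglycan that packs granules (39.2 against 15.4), *Stx11* (1.42 against 0.37), *Serpinb9*, an inhibitor of granzyme B (1.32 against 0.59), and *Serpinb6b* (2.03 against 0.98), which fell under 1.5 times within that range. *Prf1*, which encodes perforin, stayed below the filter with 41 corrected UMIs in CTL cells (above 0 in 10.9%, 7.71% to 14.8%) and 9 in tumorigenic cells (2.22%), and *Gzmk* with 40 and 3. *Lamp1*, a granule membrane protein also found on lysosomes, was at 1.07 in CTL and 0.977 in tumorigenic cells. Of 5 tested NK receptors, 4 were higher in CTL cells and 0 in tumorigenic cells, with *Slamf7* at 1.62 against 0.54 and *Cd226* at 3.08 against 1.75. The *Cd226* difference fell under 1.5 times within the higher *Rps3a1* range and between the subsets by dissociation sum, where 3 of the 5 were higher in CTL cells. *Klrk1*, which encodes NKG2D, went the other way below the filter, with 43 corrected UMIs in tumorigenic and 2 in CTL cells.

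The *Gzmb* promoter is shown because it carries the AP-1 letters (TGANTCA, in capitals) 58 bases before the start, letters that the *Il17a* promoter also holds (chr14:56262335-56262584, minus strand, GRCm38.p6).
Gzmb: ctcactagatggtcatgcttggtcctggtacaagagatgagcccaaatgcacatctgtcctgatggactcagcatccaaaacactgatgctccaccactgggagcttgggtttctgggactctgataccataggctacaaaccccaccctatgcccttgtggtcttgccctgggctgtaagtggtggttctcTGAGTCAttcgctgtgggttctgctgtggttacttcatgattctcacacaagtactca
Of the 12 genes with a promoter among the 15 with the largest ratios toward CTL cells, 3 held the AP-1 letters and 0 the T-box letters AGGTGTNA. Of the 13 on the tumorigenic side, 2 held AP-1 and 0 T-box letters. Over all 27025 symbols, 8.97% held AP-1 and 3.52% T-box letters.

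Several differences toward CTL cells were also seen within the higher *Rps3a1* range, where 32 CTL cells with 121233 corrected UMIs remain. There *Ccl5* was at 89.2 against 41.8, *Gzma* at 8.08 against 1.48, *Gzmb* at 5.61 against 1.91, *Nkg7* at 19.4 against 8.03, *Cd7* at 4.45 against 0.446, *Cd160* at 2.23 against 0.308 and *Id2* at 17.9 against 6.26. Between the subsets by dissociation sum, *Ccl5* was at 113.7 against 40.0, *Gzma* at 6.06 against 0.882 and *Id2* at 23.3 against 6.05. Of the 239 genes higher in CTL cells, 223 kept their direction within the higher *Rps3a1* range and 147 their size of 1.5 times. Of the 208 genes higher in tumorigenic cells, 202 and 175 did so.

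A small part of the genes was high in both clusters. By levels against the other 6 clusters, 23 of the 1904 tested genes were at least 1.5 times higher in both and 10 at least 1.5 times lower in both. Another 177 were higher in tumorigenic cells only and 67 in CTL cells only. Whether 23 is more than the 2 sets would share by their sizes was not tested. The granule and chemokine genes led. *Ccl5* was at 1.40 in the other clusters, *Gzmb* at 0.593, *Nkg7* at 1.02 and *Ctsw* at 0.22. Tumorigenic cells, although below CTL cells, were thus above the joint level of the other 6 clusters for each. Cycling cells alone, however, were above tumorigenic cells for *Gzmb* (2.045 against 1.855) and *Ctsw* (1.27 against 1.147). For *Ccl5* (3.72 against 44.4) and *Nkg7* (4.09 against 8.61) cycling cells were below tumorigenic cells. *Hopx* was at 4.26 in tumorigenic, 4.43 in CTL and 1.07 in the other clusters. *Csf1* was at 0.79, 0.86 and 0.19, the cyclin *Ccnd3* at 2.46, 2.43 and 1.05, and *Ahnak* at 2.75, 1.91 and 0.84. Among genes low in both, *Lmo4* was at 2.97, 1.12 and 5.66 and *Ifi27l2a* at 5.96, 6.18 and 10.7. Low levels were not particular to them, with *Lmo4* at 2.87 in germinal center TFH and 2.20 in cycling cells. *Ifi27l2a* was at 5.92 in pre-tumorigenic cells.

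Surface molecules set the clusters apart by group. Of 8 tested checkpoint and costimulatory genes, 4 were higher in tumorigenic and 3 in CTL cells. *Ctla4*, an inhibitory receptor, was at 11.1 against 0.347 (25.1 times), and at 11.2 against 0.990 (10.4 times) within the higher *Rps3a1* range. It was above 0 in 71.5% (66.5% to 76.1%) and 8.41% (5.62% to 12.0%) of cells, with tissue-resident TFH cells at 18.7% and pre-tumorigenic cells at 68.3%. *Cd28* was at 9.07 against 2.17, *Icos* at 6.80 against 1.89 and *Tnfrsf4*, which encodes OX40, at 2.88 against 0.84. Of 6 homing receptors, *Gpr183*, a receptor for oxysterols, was higher in tumorigenic cells at 6.03 against 0.36, and 3 were higher in CTL cells. These were *Gpr18*, the TH1 chemokine receptor *Cxcr3* (2.98 against 1.07) and the small intestinal homing receptor *Ccr9* (3.75 against 1.67). *Cxcr6* was at 8.48 and 7.42. Within the higher *Rps3a1* range *Ccr9* differed by a log2 ratio of -0.010. Of 9 integrin and adhesion genes, *Cd44* (3.11 against 1.51) and *Itgb1* were higher in tumorigenic cells and 4 in CTL cells, among them *Itga4* (4.59 against 1.95) and *Itgb2* (4.30 against 2.03). The difference of *Itgb2* fell under 1.5 times between the subsets by dissociation sum, and that of *Itgb1* with 0.5 added. *Ifngr1*, a chain of the IFNγ receptor, was at 6.54 against 2.20, 1 of 3 cytokine receptor genes of 8 tested that were higher in tumorigenic cells, and *Il18r1* was the 1 higher in CTL cells. The *Il18r1* difference fell under 1.5 times within the higher *Rps3a1* range and with 0.5 added.

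**Figure D3:**
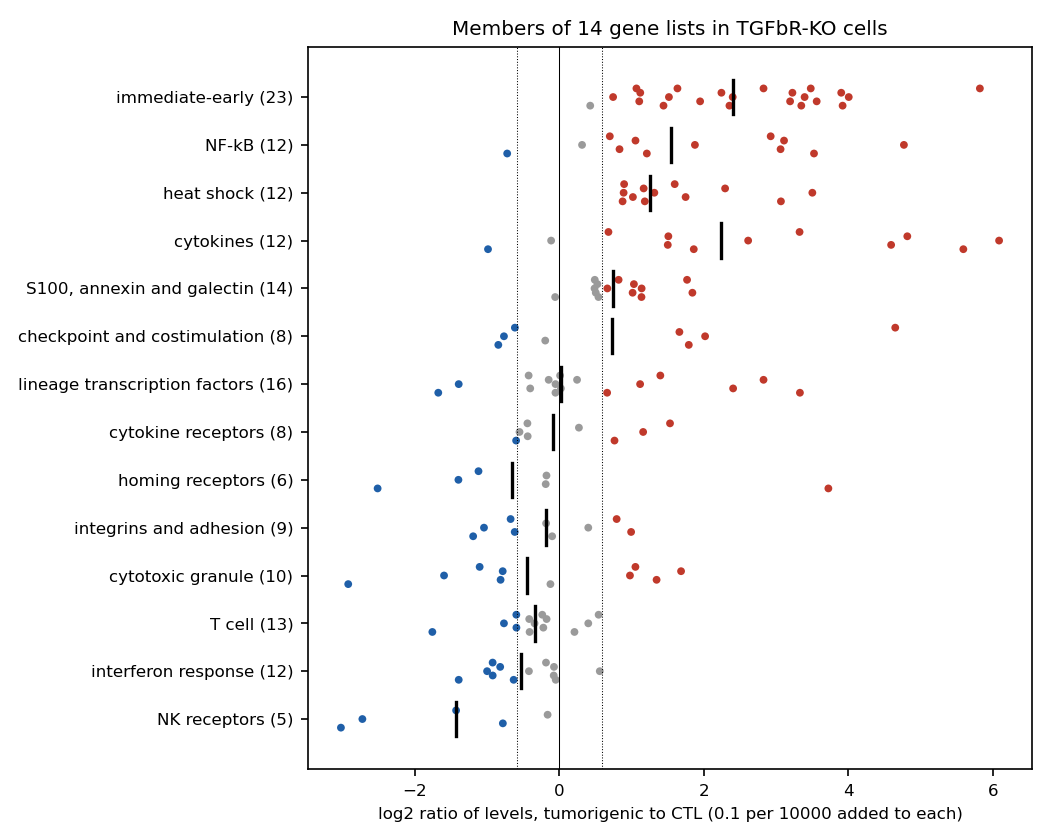
Log2 ratio of the level in tumorigenic to that in CTL cells for each tested gene (points) of 14 lists, with the number tested in parentheses, a black bar at the median and dotted lines at 1.5 times. Immediate-early, heat shock, NF-κB and cytokine genes lie mostly to the tumorigenic side (red) and NK receptors mostly to the CTL side (blue), with grey points under 1.5 times.

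Genes of TGFβ signaling were few after the filter. Of 5 tested, 2 were higher in tumorigenic cells and 0 in CTL cells. *Furin*, a protease that matures TGFβ, was at 23.6 against 8.22 and the repressor *Tgif1* at 2.18 against 0.13. *Smad7*, the inhibitory SMAD, was at 1.06 against 0.678, just under 1.5 times. *Itgae*, a TGFβ-induced integrin of intraepithelial cells, stayed below the filter with 6 corrected UMIs in tumorigenic and 94 in CTL cells, the latter in 12.5% (9.05% to 16.6%) of cells.

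Of 14 tested S100, annexin and galectin genes, 8 were higher in tumorigenic cells and 0 in CTL cells, with *S100a6* at 19.0 against 5.23, *Lgals1* at 21.8 against 10.6 and *Anxa2* at 2.29 against 0.60. Within the higher *Rps3a1* range 4 of the 14 were higher in tumorigenic cells, *Lgals1* was under 1.5 times and *Lgals3* turned, at a log2 ratio of -0.45. Interferon response genes went toward CTL cells, with 6 of 12 higher there and 0 in tumorigenic cells, the cluster with the higher *Ifng* level. They included *Ly6a* (7.67 against 3.78), the immunoproteasome subunit *Psmb8* (12.3 against 6.43) and *H2-K1* (42.6 against 27.4). Among housekeeping lists, ribosomal protein and respiratory chain genes moved little. Over all tested genes, 10.9% were higher in tumorigenic and 12.6% in CTL cells. Of 80 ribosomal protein genes 1 was higher in each direction, *Rps3a1* and *Rps27l*. Of 64 respiratory chain genes 2 were higher in CTL cells, and of 8 glycolysis genes *Hk2* was higher in tumorigenic cells. Of 27 proteasome genes 5 (18.5%) were higher in CTL and 0 in tumorigenic cells, with a median log2 ratio of -0.32. Within the higher *Rps3a1* range 8 of them were higher in CTL cells. Between the subsets by dissociation sum 4 were higher in CTL and 3 in tumorigenic cells. Of 19 actin cytoskeleton genes 2 were higher in tumorigenic cells, and of 3 cell cycle genes 0 in either cluster. Of 6 mitochondrial genes *mt-Co1* (26.6 against 10.9) and *mt-Nd5* (8.07 against 4.89) were higher in tumorigenic cells.

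Markers of other cells were low in both clusters. Those of CD8 T cells summed to 0.057 and 0.066 corrected UMIs per 10000 in tumorigenic and CTL cells, of γδ T cells to 0.064 and 0, of NK cells and ILC1 to 0.106 and 0.083, of NKT and MAIT cells to 0.035 and 0.008, of myeloid cells to 1.66 and 1.54, and of epithelial cells to 0.135 and 0.380. Those of regulatory T cells summed to 0.850 and 0.471, and of B cells to 0.517 and 1.91, mostly *Jchain*. *Cd4* was above 0 in 65.7% and 70.1% of cells and *Cd3e* in 93.1% and 97.2%. The TFH markers *Cxcr5* and *Bcl6* had 1 and 30 corrected UMIs in tumorigenic cells and 1 and 18 in CTL cells. Of 6 tested CTL markers 5 were higher there, and of 6 tested TH1 markers 3 were higher in tumorigenic and 2 in CTL cells.

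**Figure D4:**
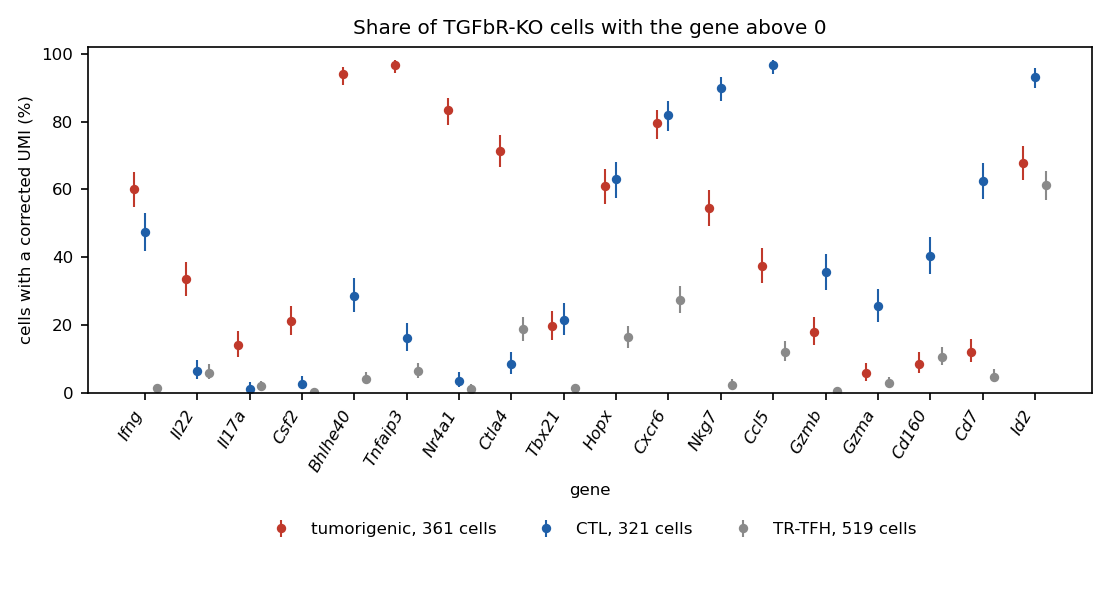
Share of cells above 0 (percent, with exact Clopper-Pearson 95% intervals) for named genes in tumorigenic, CTL and tissue-resident TFH (TR-TFH) cells of TGFβR-KO. *Tnfaip3*, *Bhlhe40* and *Nr4a1* are in most tumorigenic cells, *Ccl5* and *Nkg7* in most CTL cells, and *Ifng* in 60.1% and 47.4% of them.

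Shares were also taken at equal depth. Each cell was thinned to 3305 corrected UMIs, the number in the shallowest TGFβR-KO cell, and 39 of 40 shares (20 genes in both clusters) stayed within their interval. The largest change was that of *Hopx* in tumorigenic cells, by 5.54 percentage points from 60.9%.

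The tumorigenic cluster was not uniform. Its 121 cells with *Il22* and 240 cells without had similar depth (median of 4031 and 3786 corrected UMIs) and similar dissociation sums (253.6 and 252.3). *Ifng* was above 0 in 40.5% of the cells with *Il22* and 70.0% of those without, at levels of 7.56 and 28.8. *Ccl5* was above 0 in 19.8% (13.1% to 28.1%) and 46.3% (39.8% to 52.8%), at levels of 3.11 and 65.8, and *Nkg7* in 28.1% (20.3% to 37.0%) and 67.9% (61.6% to 73.8%). *Tbx21* was above 0 in 9.09% and 25%, and *Hopx* in 43.8% and 69.6%. The TH17 genes lay on the other side. *Il17a* was above 0 in 32.2% of cells with *Il22* and 5.0% of those without, *Il17f* in 23.1% and 3.75%, *Ccr6* in 32.2% and 7.5% and *Il23r* in 27.3% and 12.9%. *Ctla4* and *Ccr9* were also more frequent with *Il22*, in 86.8% against 63.8% and 47.9% against 17.9%. Genes found in most cells of the cluster did not follow this split, with *Tnfaip3* in 97.5% and 96.3%, *Bhlhe40* in 93.4% and 94.2% and *Nr4a1* in 86.8% and 81.7%. They are not all particular to this cluster, since *Tnfaip3* was above 0 in 78.3% and *Nr4a1* in 67.8% of pre-tumorigenic cells. The split used *Il22* itself and was made after its values were seen.

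**Figure D5:**
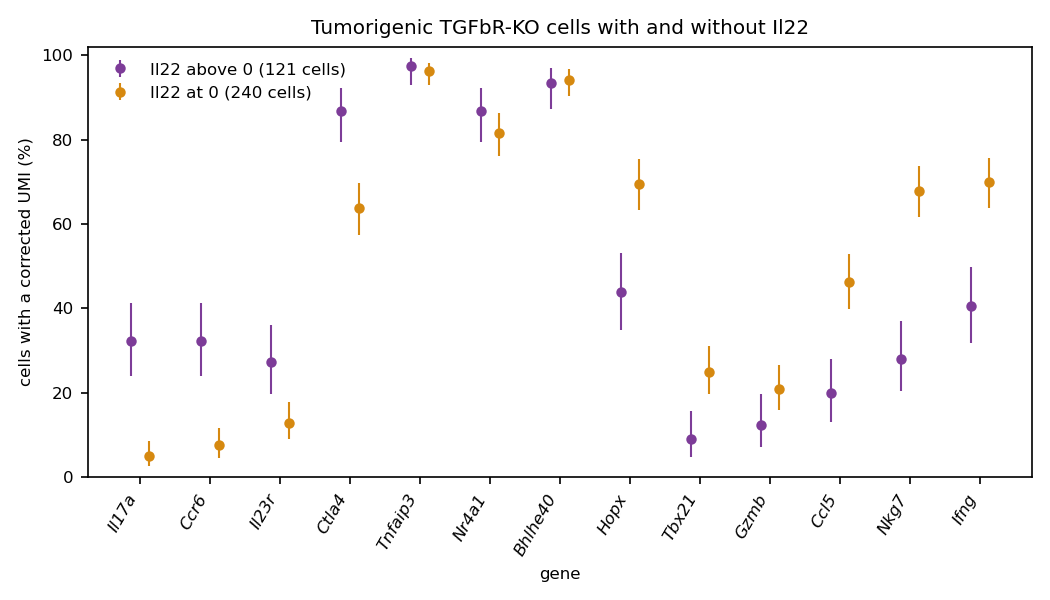
Share of tumorigenic cells above 0 (percent) for named genes among the 121 cells with Il22 (purple) and the 240 cells without (orange), with exact Clopper-Pearson 95% intervals. *Ifng*, *Ccl5*, *Nkg7* and *Tbx21* are more frequent without *Il22*, TH17 genes more frequent with it, and *Tnfaip3*, *Bhlhe40* and *Nr4a1* similar in both.

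In the tumorigenic cluster, cells with *Ifng* had *Il17a* less often than cells without *Ifng*. Of 217 cells with *Ifng*, 20 also had *Il17a* (9.22%, 5.72% to 13.9%), against 21.5% of the 144 cells without *Ifng*. These 20 were among 51 cells with *Il17a* in all. Corrected UMIs of *Il17a* numbered 440 in the cells with *Ifng* and 453 in those without. *Ccl4* was almost wholly within the cells with *Ifng*, in 36 of its 37 cells, and *Ccl5* was in 51.6% of cells with *Ifng* and 16.0% of those without. *Gzmb* was in 25.8% and 6.25%. The 135 tumorigenic cells with *Ccl5* had it at a level of 120.1, close to the 123.6 of all CTL cells, and *Nkg7* at 17.2 against 15.2 of CTL cells. Their *Ifng* level was 41.4, against 9.93 in the 226 cells without *Ccl5*, and their *Gzma* level 4.60 against 0.10. Their *Gzma* level was still under the 14.1 of CTL cells.

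In the CTL cluster *Ccl5* was in 96.1% of the 152 cells with *Ifng* and 97.0% of the 169 without, and *Gzmb* in 34.2% and 36.7%. *Nkg7* was in 95.4% (90.7% to 98.1%) of those with *Ifng* and 85.2% (78.9% to 90.2%) of those without. *Gzma* and *Gzmb* overlapped, with *Gzmb* in 55 of 82 cells with *Gzma* (67.1%, 55.8% to 77.1%) and in 24.7% of the rest. Of the 152 CTL cells with *Ifng*, 1 had *Il17a*.

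T cell receptor genes differed between the clusters. *Trbc1* and *Trbc2*, the constant regions of the β chain, are alike in sequence, so UMIs can be split between them. *Trbc1* was at 24.3 in CTL and 7.10 in tumorigenic cells and *Trbc2* at 14.4 and 21.0. The *Trbc1* difference did not hold within the higher *Rps3a1* range, where CTL cells had 8.83 and tumorigenic cells 6.802, while CTL cells in the lower range had 26.3. Of 13 tested T cell genes 4 were higher in CTL cells and 0 in tumorigenic cells. *Trac*, the α chain constant region, was at 15.9 in CTL and 10.5 in tumorigenic cells and turned within the higher range, at a log2 ratio of 0.32. *Trbv3* was above 0 in 54 CTL cells (16.8%, 12.9% to 21.4%) and 8 tumorigenic cells (2.22%, 0.962% to 4.32%), and in 1.74% to 7.55% of the other clusters. *Trav8n-2* was in 41 CTL cells (12.8%) and 2 tumorigenic cells, and in 1.30% to 3.46% of the other TGFβR-KO clusters. *Trav2* was in 18 CTL cells (5.61%) and 0 of 361 tumorigenic cells, for which the exact interval reaches 1.02%. No CTL cell of the higher *Rps3a1* range had *Trav8n-2* or *Trav2*, and 2 of 32 had *Trbv3*. CTL cells with and without *Trbv3* had similar cytotoxic shares, with *Gzma* in 25.9% and 25.5%, *Gzmb* in 37.0% and 35.2% and *Ccl5* in 98.1% and 96.3%. *Trav8n-2* was in 10 of the 54 cells with *Trbv3* and in 0 of 1007 TGFβR-WT and 0 of 1098 TGFβR-CA cells, with upper limits of 0.366% and 0.335%. The TGFβR-CA cells and part of the TGFβR-WT cells are of another batch, whose part was not tested. V segments are detected in few cells by this assay, and clones were not analysed here.

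Few cells of the other conditions carried these cluster names. The tumorigenic name was given to 5 TGFβR-WT and 2 TGFβR-CA cells and the CTL name to 13 and 3. Of the 13 TGFβR-WT cells named CTL, 13 had *Ccl5*, 12 *Nkg7*, 8 *Ifng* and 2 *Gzma*. Of the 5 TGFβR-WT cells named tumorigenic, 5 had *Tnfaip3*, *Bhlhe40* and *Ctla4*, 3 *Il17a*, 2 *Ifng* and 0 *Gzma*. These cells are too few for a comparison.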

How the data were processed

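Droplet scRNA-seq of sorted YFP+CD4+ T cells was counted by the authors with Cell Ranger 3.1.0 on mm10, filtered on detected genes and mitochondrial share, normalized with SCTransform, integrated and clustered in Seurat, and γδ T cells and epithelial cells were removed. Each deposited value is a natural log, taken of the corrected UMI number after 1 was added, and the authors' cluster names are given per cell. The name prefix of the TGFβR-KO cells is R, which the table does not spell out. It was tied to the TGFβR-KO sample by elimination, since the other prefixes match the remaining sample titles, and its number of cells is the one the study's methods give. The log was undone and whole numbers were summed per cluster. Since corrected UMIs even out depth, differences in the original depth of cells cannot be seen.

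Levels were compared as ratios after 0.1 per 10000 was added, over genes with at least 200 corrected UMIs in both clusters together, and called at 1.5 times. No test was run, since cells of 1 pooled sample are not replicates and the clusters rest on the same genes. Members and lists were chosen with earlier results of these data known. Genes named are the 15 with the largest ratio in each direction, the 10 highest and the 10 lowest in both clusters against the other clusters, and list members (highest level, largest ratios and those of interest to the study), with V segments apart. Some listed genes are not reported here. *Rps3a1*, *BC018473*, the split by *Il22* and markers below the filter were named after their values were seen, as were 3 alternatives, the higher *Rps3a1* range, subsets of cells by dissociation sum and thinned shares. Scrublet called 4 of 2975 TGFβR-KO cells (0.134%) as doublets. The number of doublets in the deposited table is not known. Gene coordinates are from a GENCODE annotation of GRCm38 and promoters from RefSeq (GRCm38.p6). The ratio and the calls were tested on simulated data. Python 3.11.15, numpy 2.4.6, scipy 1.17.1, pandas 2.3.3, scanpy 1.11.5 and matplotlib 3.10.9 were used.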

Additional observations from a re-analysis of the deposited data

How the results depend on the processing

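With 208 genes higher in tumorigenic and 239 higher in CTL cells, the counts moved by over 1.5 times in at least 1 direction under these settings. Adding 0.5 in place of 0.1 per 10000 gave 176 and 137, and a threshold of 2 times gave 143 and 59. A minimum of 50 corrected UMIs gave 450 and 822 of 5435 genes, and no minimum gave 680 and 1300 of 11993, since more genes were then compared. The share of calls on the tumorigenic side was 46.5%, 56.2% with 0.5 added, 35.4% and 34.3% with the lower minimums, and 54.9% between the subsets of cells by dissociation sum. The remaining settings gave 206 to 278 and 203 to 267 genes. The largest tumorigenic counts, 277 and 278, came from the higher *Rps3a1* range and these subsets, which hold fewer cells. By the difference of mean natural log values, 208 of 208 and 238 of 239 genes kept their direction, and *Jchain* turned (0.031). Of 139 named calls, 13 fell under 1.5 times with 0.5 added, 15 within the higher *Rps3a1* range and 20 between the subsets, against 5 without immediate-early, heat shock and dissociation genes in the denominator and 2 without the cells with the most genes. *Jchain* (log2 ratio 1.35), *Cst7* (0.18), *Trac* (0.32) and *Lgals3* (-0.45) turned within the higher *Rps3a1* range. Between the subsets *Jchain* (2.92), *Tnf* (-0.063), *Klf2* (-0.25), *Fos* (-0.024), *Jun* (-1.01), *Btg2* (-0.14), *Hspa1a* (-1.62), *Hspa1b* (-1.93) and *Hspa8* (-0.030) turned. Of these *Fos*, *Jun*, *Btg2* and the heat shock genes are in the sum that chose the cells, and for the rest the cause was not tested. Leaving out cells that share a barcode or exceed 5% mitochondrial UMIs removed no cell. No paired analysis was possible because the result comes from no test in 1 sample. Low UMI totals limit genes such as *Tbx21* and *Prf1*.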

Other observations

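Detection of *Trbc1* and *Trbc2* in the same cell differed more between the tumorigenic and CTL clusters than among the remaining TGFβR-KO clusters. Only *Trbc2* was above 0 in 175 tumorigenic cells (48.5%) and 29 CTL cells (9.03%), and both genes were above 0 in 180 (49.9%) and 274 (85.4%). In pre-tumorigenic cells the shares were 43.9% and 55.2%, in migratory cells 32.7% and 65.7% and in tissue-resident TFH cells 25.8% and 73.4%.

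The few tumorigenic cells in the lower *Rps3a1* range were unlike the CTL cells there in *BC018473*, which was above 0 in 19 of 25 (76%) tumorigenic cells and 7 of 281 (2.49%) CTL cells. Cells in the lower range with *BC018473* at 0 made up 1.66% of the tumorigenic and 85.4% of the CTL cluster. These values were not tested.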
